A study of Mus musculus with 16 samples.

Results

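The SOCS family comprises 8 genes, Socs1 to Socs7 and Cish, taken here by gene symbol from a table of 23159 symbols. All 8 were listed and all 8 passed the filter on low counts. Their levels were followed in macrophages washed out of mouse airways, in wild-type (WT) animals and in animals without Toll-like receptor 3 (TLR3-KO), an endosomal sensor of double-stranded RNA. Each genotype was sampled as controls, for which the treatment label reads none and the protocol speaks of saline, and after pneumonia caused by 500 CFU of Klebsiella pneumoniae, a group titled injured. Every group held 4 libraries, which makes 16, and the series text gives 15. Age, strain background, the time after infection and the extent of the Tlr3 deletion are not given in the sources used here, and the labels do not say that each library is a separate mouse. The p-values therefore measure the spread between libraries, which may be partly technical.

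SOCS proteins are induced by cytokines through the JAK kinases and STAT transcription factors and then dampen the same pathway, so their transcripts are commonly read as a trace of recent cytokine signalling. Each has an SH2 domain, which binds phosphorylated tyrosine on receptors or kinases, and a SOCS box, which recruits elongins B and C and cullin 5 to form a ubiquitin ligase. SOCS1 and SOCS3 also inhibit JAK kinases directly. CIS, the product of Cish, and SOCS2 are classical targets of STAT5 and act on growth hormone and related receptors, whereas SOCS4 to SOCS7 have been studied mainly beside receptor tyrosine kinases and insulin signalling. In alveolar macrophages, the resident phagocytes of the airspace, STAT5 lies downstream of GM-CSF, the cytokine that maintains these cells.

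STAT dimers bind the palindrome TTCNNNGAA, which reads the same on both strands, and the RefSeq table of promoters held a window of 250 bases before to 50 bases after an annotated start for 4 of the 8 members (GRCm38.p6, the assembly of mm10). The windows of Cish and Socs3 are shown because these genes had the most similar profiles of any 2 members, and that of Socs1 as a member without a match. Capitals mark matches to the palindrome, and each sequence is written in the direction of transcription.
Cish, chr9:107296409-107296708, plus strand: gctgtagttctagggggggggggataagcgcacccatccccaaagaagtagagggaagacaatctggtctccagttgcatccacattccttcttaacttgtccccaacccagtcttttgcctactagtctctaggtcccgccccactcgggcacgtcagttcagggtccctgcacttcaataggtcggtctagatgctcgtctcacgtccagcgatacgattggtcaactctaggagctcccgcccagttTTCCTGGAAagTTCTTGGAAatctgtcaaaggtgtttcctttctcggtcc
Socs3, chr11:117969317-117969616, minus strand: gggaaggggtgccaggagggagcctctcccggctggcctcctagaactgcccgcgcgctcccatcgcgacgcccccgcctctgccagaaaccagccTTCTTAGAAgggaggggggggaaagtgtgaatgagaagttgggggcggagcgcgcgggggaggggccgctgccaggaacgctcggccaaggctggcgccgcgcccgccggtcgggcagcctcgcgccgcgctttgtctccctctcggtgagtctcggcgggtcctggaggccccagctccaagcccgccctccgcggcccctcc
Socs1, chr16:10785487-10785786, minus strand: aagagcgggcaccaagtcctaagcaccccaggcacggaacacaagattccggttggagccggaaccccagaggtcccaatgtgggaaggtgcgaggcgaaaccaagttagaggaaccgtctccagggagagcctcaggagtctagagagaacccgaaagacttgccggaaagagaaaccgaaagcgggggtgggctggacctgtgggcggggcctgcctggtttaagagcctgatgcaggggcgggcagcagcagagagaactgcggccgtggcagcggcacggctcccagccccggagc
Cish held 2 matches, TTCCTGGAA and TTCTTGGAA, separated by 2 bases, and the upstream match begins at the annotated start base. Socs3 held 1 match, TTCTTAGAA, which begins 154 bases upstream of its start. Socs1 and Socs4 (window chr14:47276670-47276969) held 0. Among 32851 promoter windows of the same length, 8.30% had at least 1 match and 0.457% had 2 or more. A match is a description of the letters and not a measured binding site, and GENCODE M21 places the ends of the Cish and Socs3 genes further upstream than these RefSeq starts.

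In the mm10 annotation Cish (ENSMUSG00000032578.7) spans chr9:107296026-107302784, Socs1 (ENSMUSG00000038037.5) chr16:10782240-10785536, Socs2 (ENSMUSG00000020027.18) chr10:95385362-95417180 and Socs3 (ENSMUSG00000053113.3) chr11:117966079-117970047. Socs4 (ENSMUSG00000048379.9) spans chr14:47276931-47296102, Socs5 (ENSMUSG00000037104.9) chr17:87107679-87137839 and Socs7 (ENSMUSG00000038485.5) chr11:97362551-97398542. Socs6 is ENSMUSG00000056153.15. No other symbol of the table overlaps any of the 8 genes. The annotation puts Gm17040 and Gm17041 on the opposite strand within Cish, and since the strand setting of the counting was not given, reads from them could have been counted as Cish. Within Socs6 it puts AC118614.1 on the opposite strand and AC122398.2 and AC122398.3 on the same strand, so Socs6 counts carry a like uncertainty.

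Libraries held between 29667102 and 59640251 counts. Tlr3 was counted at 2.18 to 4.53 CPM, the count as a share of the library total in parts of 1000000, in the 8 WT libraries and at 0.274 to 0.717 CPM in the 8 TLR3-KO libraries. TLR3-KO controls 1, 2 and 3 held Xist, the RNA of the inactive X chromosome, at 42.3, 31.6 and 20.3 CPM, whereas the title of the series names male mice, and the other 13 libraries held at most 0.230 CPM. The Y genes Ddx3y, Eif2s3y, Kdm5d and Uty summed to 0.758, 1.16 and 23.2 CPM in TLR3-KO controls 1, 2 and 3. In the other 13 libraries they summed to 163 to 235 CPM. In comparisons that use the TLR3-KO controls, this difference cannot be told apart from genotype or pneumonia. Controls 1 and 2 stood apart from controls 3 and 4 in both genotypes. By CPM on raw totals, ranges did not overlap between these pairs for 5694 of 12455 genes tested (45.7%), in the same direction in both genotypes. All 12 alveolar macrophage markers were detected, and their summed level lay between 21200 and 28830 CPM with overlapping groups. Chi3l3 alone made up 72.7% of that sum, and single markers could differ between groups. Car4 lay at 402 to 1231 CPM in TLR3-KO controls and higher, at 1661 to 2468 CPM, in TLR3-KO injured libraries. Pparg lay at 141.5 to 176.5 CPM in TLR3-KO controls and lower, at 126.7 to 134.8 CPM, in TLR3-KO injured libraries. Of 12 neutrophil markers 11 were in the table, with Elane at 0 in every library, and their sum lay at 30.3 to 67.7 CPM in WT controls, 60.0 to 268 CPM in WT injured, 31.9 to 74.2 CPM in TLR3-KO controls and 64.8 to 163 CPM in TLR3-KO injured libraries. Summed erythroid markers lay at 11.2 to 151, 331 to 709, 41.3 to 493 and 73.1 to 199 CPM in the same order.

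Levels of different genes can be compared only per transcript length, so CPM was divided by the kilobases covered by all annotated exons of each gene. On this scale Socs3 had the highest mean in WT controls, at 3.22 ± 1.89 CPM per kb (SD, n = 4), followed by Socs6 at 1.59 ± 0.275 and Socs4 at 1.52 ± 0.102 CPM per kb. Socs2, Cish and Socs5 followed at 1.16 ± 0.0505, 1.11 ± 0.916 and 1.09 ± 0.0491 CPM per kb, then Socs7 at 0.782 ± 0.215 and Socs1 at 0.321 ± 0.180 CPM per kb. Within this order, the libraries of neighbouring genes did not overlap at the steps from Socs4 to Socs2 and from Socs5 to Socs7, and overlapped at the other 5 steps. After pneumonia Socs2 was second to Socs3 in both genotypes, at 2.50 ± 0.672 CPM per kb in WT and 3.00 ± 0.225 CPM per kb in TLR3-KO, against 7.39 ± 4.25 and 5.01 ± 2.18 CPM per kb of Socs3. The family was thus detected throughout, with Socs1 at the bottom in both control groups and in TLR3-KO injured libraries, at 20 to 152 counts per library over the 16 libraries. The exon length counts all annotated transcripts, and which of them these cells use was not measured.

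**Figure D1:**
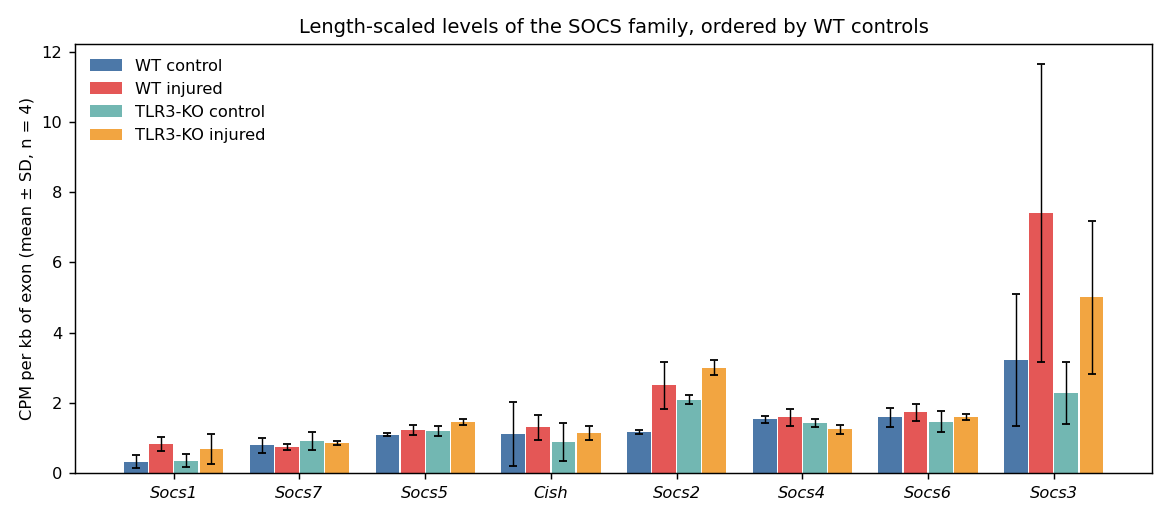
Mean CPM per kilobase of exon (vertical axis, bars from 0, error bars SD, n = 4 libraries) of the 8 SOCS family genes, ordered by their level in WT controls, with 1 bar per group. Socs3 has the highest mean in every group, and Socs2 has a mean of 1.16 CPM per kb in WT controls against 2.08 to 3.00 CPM per kb in the other groups.

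Socs2 was the only member that edgeR called in the fit of all libraries without a block, in 3 of 7 comparisons. SOCS2 limits growth hormone signalling and is induced by STAT5. WT controls 1 to 4 held 11.6, 10.6, 10.7 and 11.4 CPM, and WT injured libraries 1 to 4 held 33.2, 18.9, 22.4 and 20.9 CPM. TLR3-KO controls held 20.6, 21.1, 18.6 and 19.1 CPM, and TLR3-KO injured libraries held 27.0, 28.9, 27.0 and 31.5 CPM. WT controls lay below every other library, TLR3-KO controls lay near WT injured libraries 2 to 4, and WT injured 1 was the highest library of all. In each genotype the injured libraries lay above the controls without overlap. Fewer cells of a type that expresses the gene and less RNA per cell cannot be told apart in RNA from pooled cells.

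**Figure D2:**
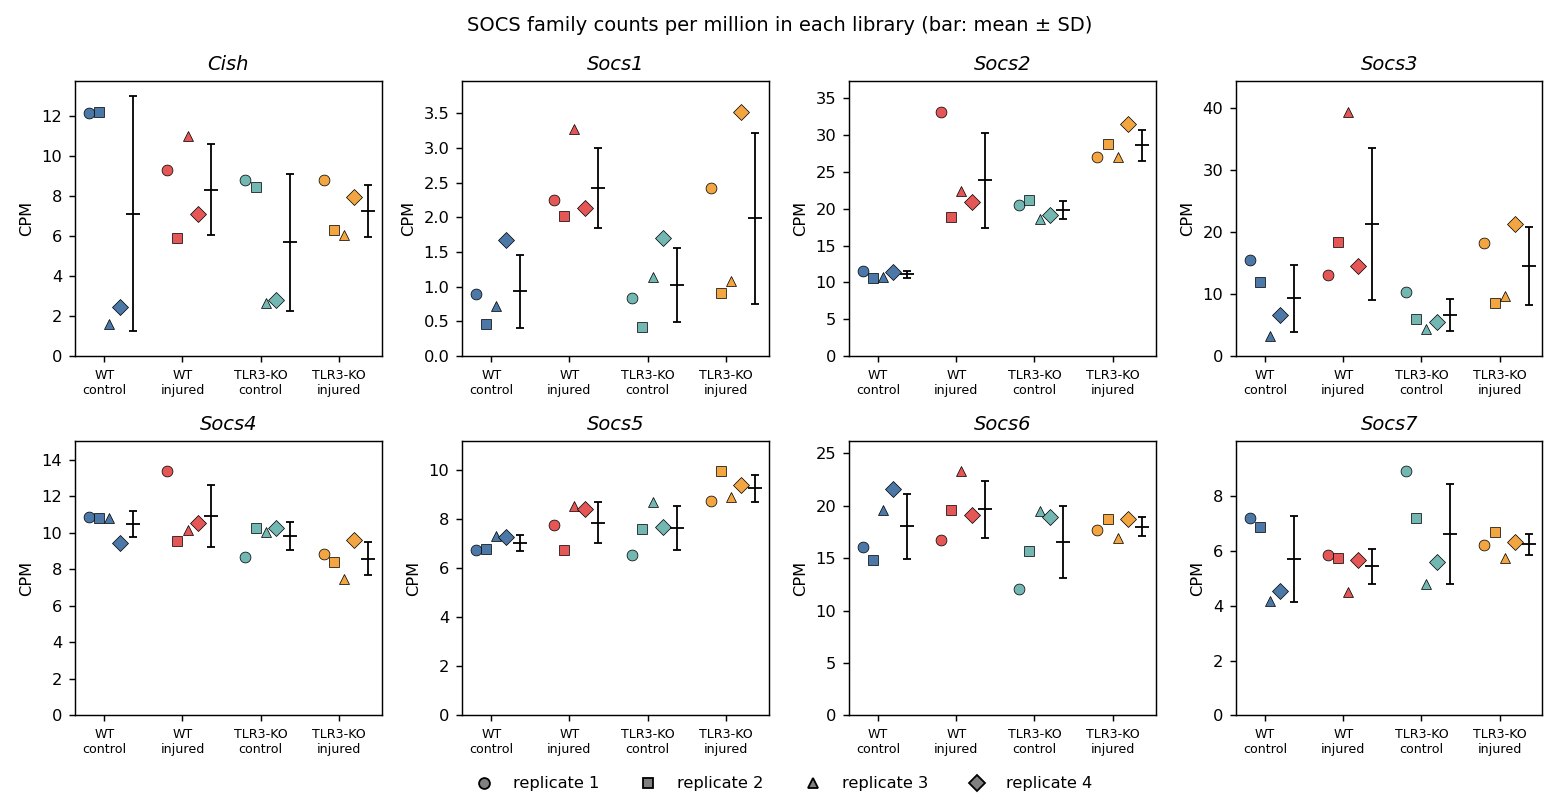
CPM (vertical axis, from 0, scaled separately for each gene) of the 8 SOCS family genes in every library, by group (horizontal axis), with symbols for replicate numbers 1 to 4 and a bar at the mean ± SD. Socs2 in WT controls lies between 10.6 and 11.6 CPM, below all other libraries, while Cish in controls 1 and 2 lies at 8.46 to 12.2 CPM and in controls 3 and 4 at 1.58 to 2.78 CPM.

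Injured libraries were set against controls to ask which genes change after pneumonia. Each difference was tested with edgeR's quasi-likelihood test on counts, with Benjamini-Hochberg adjustment over the 12455 genes and calls at an adjusted p under 0.05. In WT the log2 fold change of Socs2 was 0.99 (SE 0.15, 1.99-fold), with an adjusted p of 0.0501 just above the threshold. No member was called, as for all genes (0.0% called), while 3 of 8 members, Socs1, Socs2 and Socs3, had an unadjusted p under 0.05 against 10.7% of all genes. DESeq2 called Socs2 (log2 fold change 0.98, adjusted p = 1.31e-05), and limma voom called no member (adjusted p = 0.0564 for Socs2). Socs2 was also called in edgeR with RLE size factors (adjusted p = 0.0459), with genes kept at 5 CPM or more in 3 libraries (0.0240), with edgeR's non-robust fit (0.0471, added after seeing the data), with the block (0.0410), with controls 1 and 2 only (0.92, 0.0153) and with controls 3 and 4 only (1.07, 0.0444). It was not called without the filter (0.0525) or in the fit of 2 groups (0.395). Leaving out 1 library called it in 2 of 8 fits, without WT injured 1, the highest library (0.78, adjusted p = 0.0499), and without WT injured 2 (1.07, 0.0405), and the other 6 gave adjusted p up to 0.208. In all, 9 of 18 alternatives called Socs2, with log2 fold changes of 0.78 to 1.07. Socs2 and Socs1 were the members whose WT groups did not overlap, a pattern found in 4.51% of all genes (3.83% higher). Summed erythroid markers did not overlap between these groups either, and their part in the Socs2 difference was not tested.

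In TLR3-KO the pneumonia difference of Socs2 was 0.46 on the log2 scale (SE 0.15, 1.37-fold, adjusted p = 0.107), and no member was called, against 1.09% of all genes. Here 2 of 8 members, Socs2 and Socs3, had an unadjusted p under 0.05, against 23.9% of all genes, and DESeq2 and limma voom called 0 members. By CPM on raw totals, groups did not overlap for Socs2 and Socs5, a pattern found in 14.3% of all genes. The Socs5 separation depends on this scaling, as given with that gene. With controls 3 and 4 as the only controls, Socs2, Socs3 and Cish were called (log2 fold changes 0.59, 1.53 and 1.41), in a fit that called 33.0% of all genes. With controls 1 and 2 only, no member was called by edgeR, against 0.658% of all genes, and Socs2 was at 0.34 (adjusted p = 0.380). With TLR3-KO control 4 as the only TLR3-KO control, Socs2 was at 0.62. The pneumonia difference of Socs2 was 0.54 lower in TLR3-KO than in WT on the log2 scale (difference -0.54, SE 0.21, unadjusted p = 0.0238, adjusted p = 0.246), so a difference between the genotypes in the size of the response was not called. Without WT injured 1 this difference was -0.33 (adjusted p = 0.431). For that difference no member was called by edgeR, DESeq2 or limma voom, Socs2 was the only member with an unadjusted p under 0.05, against 17.7% of all genes, and edgeR called 0.0% of all genes.

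Averaged over the genotypes, Socs2 rose after pneumonia by 0.73 on the log2 scale (SE 0.11, 1.65-fold, adjusted p = 0.00699), higher in 8 of 8 injured libraries than in any control of the same genotype. It was the only member called, against 2.26% of all genes (1.31% higher), and it stayed called in 26 of 26 alternative fits, with adjusted p between 3.32e-07 and 0.0477. Socs1 and Socs3 had averaged log2 fold changes of 1.10 (SE 0.33, adjusted p = 0.0886) and 1.05 (SE 0.34, adjusted p = 0.121). DESeq2 called both (adjusted p = 0.0199 and 0.0295).

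**Figure D3:**
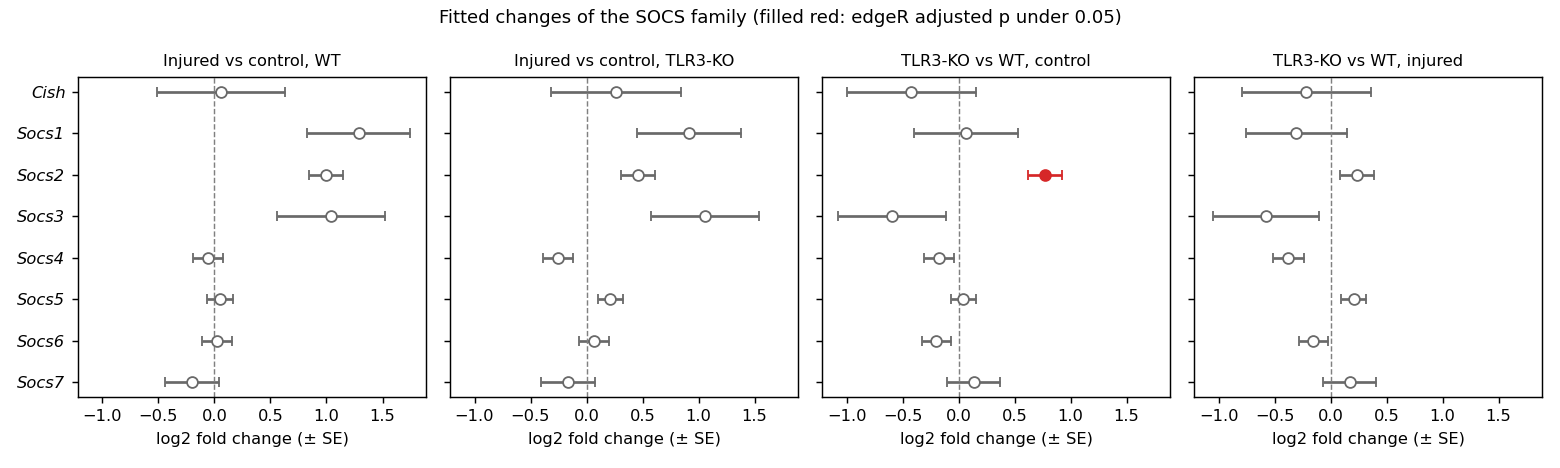
Log2 fold changes (horizontal axis, bars ± SE, edgeR, 4 against 4 libraries) of the 8 SOCS family genes in 4 comparisons, with a filled red point where the adjusted p is under 0.05. The only filled point is Socs2 between TLR3-KO and WT controls, at 0.77.

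Genotypes were compared next, first among controls. Socs2 was 1.70-fold higher in TLR3-KO than in WT controls (log2 fold change 0.77, SE 0.15, adjusted p = 0.0359), at 19.8 ± 1.21 against 11.1 ± 0.481 CPM (SD, n = 4 each). It was the only member called, against 0.658% of all genes (0.249% called higher), and the only member whose control groups did not overlap, against 8.13% of all genes (5.92% higher). The call rests on several control libraries. It was lost without WT control 1, 2 or 4 (adjusted p = 0.0844, 0.128 and 0.0705) and without TLR3-KO control 1 or 3 (0.107 and 0.0529), while the log2 fold change stayed between 0.72 and 0.82. In the fit of 2 groups the adjusted p was 0.142. Control libraries of the same number deviated together in the 2 genotypes, and with that number as a block the log2 fold change was 0.77 (adjusted p = 0.0459). TLR3-KO control 4, without Xist, was counted at 19.1 CPM, above all 4 WT controls, and with it as the only TLR3-KO control the log2 fold change was 0.61 (adjusted p = 0.275). Within controls 1 and 2 TLR3-KO had a mean of 20.9 CPM and WT one of 11.1 CPM (adjusted p = 0.0784), and within controls 3 and 4 they were 18.8 and 11.1 CPM (adjusted p = 0.248).

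After pneumonia Socs2 had means of 28.6 ± 2.14 and 23.8 ± 6.41 CPM in TLR3-KO and WT (log2 fold change 0.23, SE 0.15, adjusted p = 0.447), and WT injured 1 lay above every TLR3-KO injured library. Without that library the log2 fold change was 0.44 (adjusted p = 0.108), and without WT injured 2 it was 0.13 (0.797). No member was called, against 0.602% of all genes (0.377% higher), nor by DESeq2 or limma voom, and Socs4 was the only member with an unadjusted p under 0.05 (0.0133), against 16% of all genes. Socs5 was the member whose injured groups did not overlap, against 12.3% of all genes (9.14% higher). Averaged over control and injured states, Socs2 was higher in TLR3-KO by 0.50 on the log2 scale (SE 0.11, adjusted p = 0.0245), the only member called against 2.03% of all genes. That call was kept in 17 of 26 alternative fits and was lost, for example, with TLR3-KO control 4 as the only TLR3-KO control (adjusted p = 0.255), with controls 3 and 4 only (0.150) and without 7 of the 16 libraries in turn.

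Cish, the founding member of the family and a STAT5 target, followed the pairs of control libraries and not the groups. WT controls 1 to 4 held 12.1, 12.2, 1.58 and 2.47 CPM, and TLR3-KO controls 1 to 4 held 8.82, 8.46, 2.66 and 2.78 CPM. WT injured libraries held 9.29, 5.88, 10.99 and 7.11 CPM and TLR3-KO injured libraries 8.77, 6.28, 6.07 and 7.93 CPM. Controls 1 and 2 were 6.03-fold above controls 3 and 4 in WT and 3.18-fold in TLR3-KO, and all injured libraries lay above controls 3 and 4 and below the highest control of their genotype. Over all 4 controls the pneumonia log2 fold change was 0.06 in WT (SE 0.57, adjusted p = 0.978) and 0.26 in TLR3-KO (SE 0.58, adjusted p = 0.795). Its direction turned with the controls used. In WT the fit with controls 1 and 2 only called 13.3% of all genes and that with controls 3 and 4 only 0.49%. With controls 1 and 2 only, Cish was called lower after pneumonia in WT (log2 fold change -0.73, adjusted p = 0.0471) and was at -0.36 in TLR3-KO (0.433). With controls 3 and 4 only it was called higher in both, by 2.00 (adjusted p = 0.0186) and 1.41 (0.00377).

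**Figure D4:**
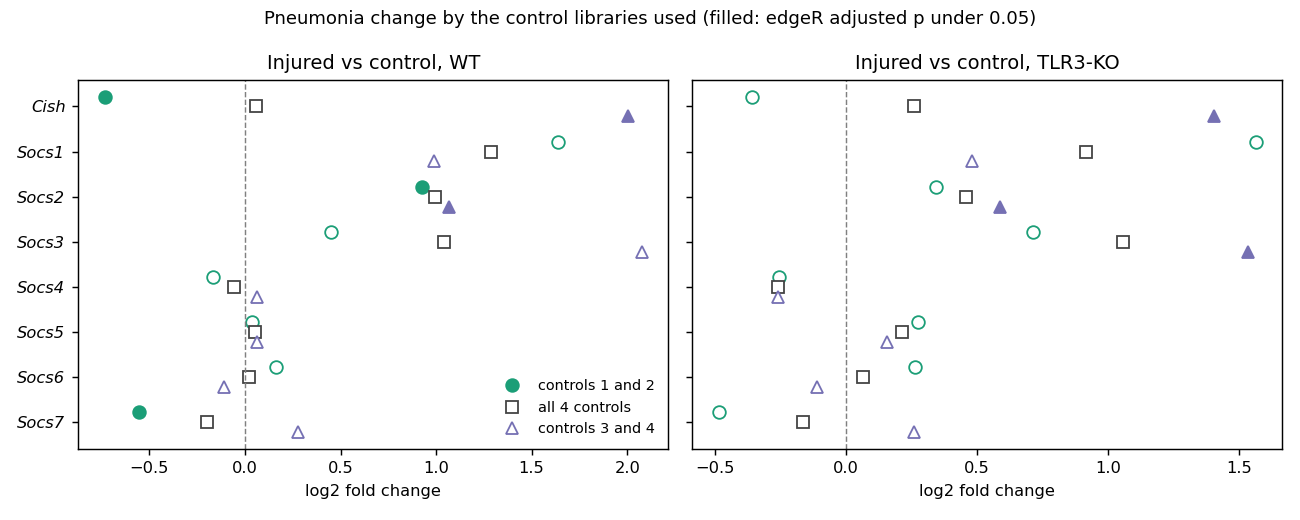
Log2 fold change after pneumonia (horizontal axis, edgeR) of the 8 SOCS family genes in WT and TLR3-KO, fitted with control libraries 1 and 2 (circles), all 4 controls (squares) or controls 3 and 4 (triangles), filled where the adjusted p is under 0.05. Cish moves from -0.73 to 2.00 in WT and from -0.36 to 1.41 in TLR3-KO, while Socs2 in WT stays between 0.92 and 1.07.

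Socs3, which restrains signalling through gp130, the shared chain of the IL-6 family receptors, was split in the same direction. WT controls 1 to 4 held 15.5, 11.9, 3.22 and 6.66 CPM and TLR3-KO controls 10.3, 6.04, 4.41 and 5.54 CPM, a ratio of controls 1 and 2 over 3 and 4 of 2.77 in WT and 1.64 in TLR3-KO. WT injured libraries held 13.1, 18.4, 39.5 and 14.5 CPM and TLR3-KO injured libraries 18.3, 8.60, 9.67 and 21.3 CPM. WT injured 3 was the highest library, and in both genotypes the injured and control ranges overlapped. The pneumonia log2 fold change was 1.04 in WT (SE 0.48, adjusted p = 0.455) and 1.06 in TLR3-KO (SE 0.48, adjusted p = 0.199), neither called. It was 0.45 in WT and 0.71 in TLR3-KO with controls 1 and 2 only, and 2.07 (adjusted p = 0.0871) and 1.53 (0.0353) with controls 3 and 4 only. The genotype differences were -0.59 in controls (SE 0.48, adjusted p = 0.502) and -0.58 after pneumonia (SE 0.47, adjusted p = 0.557). Single libraries moved these values: without WT injured 3 the pneumonia change in WT was 0.56 and the genotype difference after pneumonia -0.13, and in controls the genotype difference was -0.20 without WT control 1, -0.95 without TLR3-KO control 1 and -0.051 with controls 3 and 4 only.

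Socs1, the main brake on interferon signalling, had the fewest reads of the family. WT controls held 0.889, 0.457, 0.714 and 1.67 CPM and WT injured libraries 2.25, 2.02, 3.27 and 2.14 CPM, which did not overlap. TLR3-KO controls held 0.830, 0.421, 1.14 and 1.70 CPM and TLR3-KO injured libraries 2.42, 0.909, 1.08 and 3.52 CPM, where injured 2 and 3 lay within the control range. The pneumonia log2 fold change was 1.29 in WT (SE 0.46, adjusted p = 0.333) and 0.91 in TLR3-KO (SE 0.46, adjusted p = 0.235). The TLR3-KO value was 0.26 (adjusted p = 0.826) with TLR3-KO control 4, the one without Xist, as the only control, 0.48 with controls 3 and 4 only, 1.56 with controls 1 and 2 only and 0.49 without TLR3-KO injured 4. TLR3-KO injured 1 and 4 were the high libraries of their group for Socs1 and for Socs3. Summed neutrophil markers were also highest in these libraries, at 153 and 163 CPM against 64.8 and 109 CPM in TLR3-KO injured 2 and 3. Csf3r alone made up 50.3% of the marker sum over all libraries. Single markers differed: in TLR3-KO injured 1 to 4, S100a8 was at 15.5, 6.30, 16.25 and 25.7 CPM and Mmp9 at 19.5, 4.82, 11.1 and 16.8 CPM. In WT the highest library for Socs1, Socs3 and neutrophil markers (268 CPM) was injured 3. WT injured 2, with the next neutrophil sum (187 CPM), was lowest of its group for Socs1 (2.02 CPM) and held 18.4 CPM of Socs3. WT injured 1, lowest of its group for neutrophil markers (60.0 CPM), was second for Socs1 (2.25 CPM) and lowest for Socs3 (13.1 CPM). The part of neutrophils in these levels was not tested.

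The remaining members, Socs4 to Socs7, were not called in edgeR's fit of all libraries. Socs7, studied mainly in insulin signalling, was at 7.19, 6.85, 4.16 and 4.52 CPM in WT controls, TLR3-KO controls 1 to 4 held 8.89, 7.20, 4.76 and 5.57 CPM, and both were again higher in controls 1 and 2 (1.62-fold and 1.56-fold). Injured libraries lay at 4.48 to 5.82 CPM in WT and 5.73 to 6.66 CPM in TLR3-KO, inside the control ranges. With controls 1 and 2 only, Socs7 was called lower after pneumonia in WT (log2 fold change -0.55, adjusted p = 0.0384), and with all 4 controls its change was -0.20 (0.784). Socs6, which binds the receptor tyrosine kinase KIT, ran the other way in controls, at 16.1, 14.8, 19.6 and 21.6 CPM in WT and 12.1, 15.7, 19.5 and 18.9 CPM in TLR3-KO, with pneumonia changes of 0.02 and 0.06 on the log2 scale. By CPM on raw totals, 5 of 8 members were split between the control pairs in both genotypes. Cish, Socs3 and Socs7 were higher in controls 1 and 2, and Socs5 and Socs6 were lower. A share of 45.7% of all genes had the same kind of split, 15.0% higher and 30.7% lower in controls 1 and 2, so the family's count is near that of genes in general. TMM factors of controls 1 to 4 were 0.896, 0.903, 0.958 and 1.026 in WT and 0.928, 0.983, 1.008 and 1.067 in TLR3-KO. Dividing by them raises controls 1 and 2 against controls 3 and 4. Socs5 in WT controls, at 6.72, 6.76, 7.31 and 7.26 CPM, is then no longer split. Shares over all genes were not counted on that scale.

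Socs4, which targets the EGF receptor, was at 9.43 to 10.9 CPM in WT controls, 9.56 to 13.4 CPM in WT injured, 8.67 to 10.3 CPM in TLR3-KO controls and 7.45 to 9.62 CPM in TLR3-KO injured libraries. Its genotype difference after pneumonia was -0.38 on the log2 scale (SE 0.14, adjusted p = 0.216), and averaged over states -0.28 (SE 0.10, adjusted p = 0.137). DESeq2 called the averaged difference, at -0.29 (adjusted p = 0.0495). Socs5, also studied beside the EGF receptor and IL-4 signalling, was at 6.72 to 7.31 CPM in WT controls, 6.71 to 8.52 CPM in WT injured, 6.54 to 8.69 CPM in TLR3-KO controls and 8.73 to 9.94 CPM in TLR3-KO injured libraries. By CPM on raw totals the TLR3-KO injured libraries lay above all others for Socs5, but by little. TLR3-KO control 3, at 8.69 CPM, had a TMM factor of 1.008. TLR3-KO injured 1 and 3, at 8.73 and 8.90 CPM, had factors of 1.021 and 1.049. TMM scaling divides by these factors, which puts TLR3-KO control 3 above both. Differences on the log2 scale were 0.21 from TLR3-KO controls (SE 0.11, adjusted p = 0.257) and 0.21 from WT injured libraries (SE 0.11, adjusted p = 0.373), the latter 0.13 without WT injured 2.

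Profiles of the members were compared by Pearson's r of log2 CPM over the 16 libraries, which share the split of controls and the groups, so these values are descriptions. Cish was most like Socs3 within the family (r = 0.771), then like Socs7 (0.681), and Socs6 and Socs7 were least alike (-0.835). Over all genes Cish was most like Gadd45b, a stress-induced gene (r = 0.962), the chemokine gene Ccl3 (0.956) and Tgif2 (0.951). Socs3 was most like Marcksl1 (0.942), Nlrc5 (0.908) and Ifi203 (0.906), and Socs1 most like Isg20 (0.911), Xaf1 (0.887) and Tgtp2 (0.882), of which Nlrc5, Ifi203, Isg20, Xaf1 and Tgtp2 are known as interferon-induced. Socs2 was most like 9030425E11Rik (0.936), Ptpn18, a tyrosine phosphatase (0.935), and Ovol2 (0.925), and least like Haus8 (-0.947). Ptpn18 was lowest in WT controls like Socs2, with 2.13 ± 0.337 CPM there against 4.71 ± 1.87, 4.25 ± 0.765 and 5.47 ± 0.594 CPM in WT injured, TLR3-KO control and TLR3-KO injured libraries (SD, n = 4 each). Socs7 was most like Pcbp1 (0.942), Socs6 like Rbm12b (0.903), Socs4 like Rab11a (0.893) and Socs5 like Cntrob (0.852).

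Other genes of the JAK-STAT pathway were read from lists of ligands, receptors, kinases and STAT factors, other negative regulators, partners of the SOCS box, other SOCS box proteins and STAT targets. For pneumonia averaged over the genotypes, 2.26% of all genes were called, 1.31% higher. Of 30 receptors tested 3 were called higher in that comparison and none lower: Il15ra, a chain of the IL-15 receptor (log2 fold change 0.54, adjusted p = 0.0169), Il4ra, the IL-4 receptor (0.44, 0.0365), and Csf3r, the G-CSF receptor (1.12, 0.0343). Csf3r is also a neutrophil marker. The median log2 fold change was -0.06 over the 30 receptors and -0.0013 over all genes tested. Among 13 other negative regulators Usp18, which restrains the type I interferon receptor, alone passed. It was at 2.26 (adjusted p = 0.0136) averaged and 2.85 (0.0412) in TLR3-KO, where 1.09% of all genes were called. TLR3-KO injured libraries 1 to 4 held Usp18 at 3.69, 0.846, 1.96 and 6.72 CPM, high in injured 1 and 4 like Socs1 and Socs3, against 0.358 to 0.593 CPM in TLR3-KO controls. Its averaged call was kept in 23 of 25 alternative fits. Its call in TLR3-KO was kept in 7 of 18, with adjusted p up to 0.155, and was lost with the block (0.0713) and without TLR3-KO control 1, 3 or 4 or injured 1, 3 or 4. Among 13 STAT targets Irf1 alone passed, for pneumonia averaged over the genotypes (0.67, adjusted p = 0.0266). The calls of Csf3r and Il4ra were kept in 12 and 11 of 26 alternative fits, that of Irf1 in 19 and that of Il15ra in 25.

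No ligand, JAK kinase, STAT factor, SOCS box partner or other SOCS box protein passed in edgeR's fit of all libraries in any of the 7 comparisons. Of 26 ligands 10 passed the filter on low counts. Among them Il15, made by macrophages, was lowest in WT controls as Socs2 was, at 1.58 to 2.41 CPM, against 3.43 to 4.35 CPM in WT injured, 2.42 to 4.81 CPM in TLR3-KO control and 3.19 to 4.50 CPM in TLR3-KO injured libraries, with an adjusted p of 0.147 for pneumonia in WT and 0.0729 for genotype in controls. Stat5a and Stat5b, the factors that induce Cish and Socs2, had pneumonia log2 fold changes of -0.44 (adjusted p = 0.455) and -0.31 (0.468) in WT. With controls 1 and 2 only, Stat5a was called at -0.69 (0.0217), and with controls 3 and 4 only it was at -0.13, while Stat5b was at -0.17 without WT injured 1. The 11 JAK and STAT genes were lower in TLR3-KO than in WT controls in 10 cases, none called, with a median of -0.22 against 0.04 over all genes tested, and Jak1 and Jak2 were at -0.63 and -0.65 (adjusted p = 0.0963 and 0.117). With 1 library left out, 8 to 10 of 11 were lower. After pneumonia the values ran the other way, with 9 of 11 higher in TLR3-KO, none called, and a median of 0.11, though without WT injured 1 the median was -0.02 and 6 of 11 were lower. The 6 SPSB and WSB genes, which carry a SOCS box without the SH2 domain, all had negative pneumonia values in both genotypes, with medians of -0.08 in WT and -0.40 in TLR3-KO against 0.01 and -0.01 over all genes tested. The WT direction depends on the scaling: by mean CPM on raw totals 4 of the 6 were higher in WT injured libraries, for example Wsb1 at 212.0 against 201.2 CPM. In WT 4 of 6 were negative with limma voom or with the block, 3 of 5 with the filter of 5 CPM, 3 of 6 with controls 1 and 2 only (median 0.03), 4 of 6 with controls 3 and 4 only, and 4 to 6 of 6 with 1 library left out. In TLR3-KO 5 of 6 were negative with either pair of controls or without TLR3-KO control 2, and all of them in the other fits. Of these genes Spsb2 was nearest to a call, at -0.69 in TLR3-KO (adjusted p = 0.0537). Cul2, a cullin that binds a related box, was at -0.40 between TLR3-KO and WT controls (adjusted p = 0.0506).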

How the data were processed

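The deposited table holds whole-number counts per gene symbol, made by the authors with HTSeq as its name states and not normalized. Per the labels' protocols, RNA of lavage macrophages went into TruSeq mRNA libraries that were read from both ends over 50 bases. FastQC 0.11.3, TopHat2 2.0.13, Bowtie2 2.2.1, Cufflinks and Cuffdiff 2.1.1 were run with mm10, per the submitters' processing notes. For HTSeq, the version, strand setting and annotation are not given in the sources used here.

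Columns were placed by their sample titles, all 16 of them. Libraries of a group differed by a chi-square per degree of freedom of at least 8.0, so none was a copy. Of 23159 genes, 12455 passed filterByExpr (minimum count 10). A robust quasi-likelihood model with 1 coefficient per group was fitted in edgeR 4.0.16 under R 4.3.3 after TMM scaling. Benjamini-Hochberg adjustment covered every gene tested, and calls were made at 0.05. The SE is the log2 fold change divided by the square root of F. CPM uses raw library totals. Positions, overlaps and exon lengths came from GENCODE M21, promoters from RefSeq. The model was checked on simulated counts, drawn independently for each library. They held no split of the controls, so error rates under that split were not checked.

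The members, the gene lists and the tests were chosen with earlier results of these data known. Named were all 8 members, pathway genes called or among the 3 of lowest p in a comparison, and the genes most and least like each member. Osm, Lif and the other genes named for the split of controls were chosen after their values were seen. Same-numbered libraries of the genotypes correlated in controls (r 0.48 to 0.60), so the blocked value stands beside that comparison. In the others r was -0.34 to 0.34, and blocked values given there are alternatives only. Between control and injured TLR3-KO libraries, 6 of 8 correlated best with the one of their own number. Alternatives tried were DESeq2 1.42.0, limma 3.58.1, RLE size factors, other filters, fits of 2 groups and the block. Others were subsets of the controls, each library left out and, added after seeing the data, a non-robust fit. The limma fit used voom's weights for single counts and no weights for whole libraries. Protein sequences were not used here.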

Additional observations from a re-analysis of the deposited data

Results flagged for a closer look

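Of 96 combinations of gene and group of 4 libraries, 8 had a highest or lowest library whose gap to its nearest neighbour exceeded Dixon's 95% critical value for 4 samples, as a share of the group's range. Chance gives about 1 such case in 20 groups.

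Among the SOCS family, Socs4 was lowest in WT control 4, at 9.43 CPM against 10.8 CPM in the nearest library, and in TLR3-KO control 1, at 8.67 against 10.1 CPM. Socs7 was lowest in WT injured 3, at 4.48 against 5.67 CPM.

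Among pathway genes, Il15ra was highest in WT control 4, at 9.65 against 7.50 CPM, and in TLR3-KO injured 4, at 15.4 against 11.7 CPM. Spsb2 was highest in TLR3-KO injured 4, at 39.0 against 33.9 CPM. Wsb2 was lowest in WT injured 4, at 272.7 against 349.9 CPM, and Fos was highest in WT injured 1, at 178 against 120.0 CPM.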

How the results depend on the processing

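Socs2 kept its direction in every alternative of every comparison, and its call after pneumonia averaged over the genotypes was kept in all 26. The number of SOCS genes called for pneumonia in WT was 0 with all libraries and 1 with RLE size factors, DESeq2, the filter of 5 CPM in 3 libraries, the replicate block or the non-robust fit, the called gene being Socs2 (adjusted p = 0.0410 with the block). Those fits called 11, 181, 2, 3 and 2 genes in all, in that order. The number of SOCS genes was 3 with controls 1 and 2 only, where 13.3% of all genes were called. It was 2 with controls 3 and 4 only (0.49% of all genes) and 0 to 1 with 1 library left out, among 0 to 10 genes called. In TLR3-KO it was 0, among 136 genes called in all, and 3 with controls 3 and 4 only, where 33.0% of all genes were called. Between control genotypes it was 1, among 82 genes called in all. It was 0 there in the fit of 2 groups (6 genes called), with controls 1 and 2 only (239) and with controls 3 and 4 only (19). With 1 library left out it was 0 to 1, among 15 to 464. With TLR3-KO control 4 as the only TLR3-KO control, the log2 fold change of Socs2 between control genotypes was 0.61. For pneumonia averaged over the genotypes it was 1, among 282 genes called in all, and 3 with DESeq2, among 775. With the replicate block it was 2 among 218 (Socs1 at 1.17, adjusted p = 0.0327). With controls 1 and 2 only it was 4 among 1538, and with controls 3 and 4 only 3 among 3464. For genotype averaged over states it was 1, among 253 genes called in all, and 2 with DESeq2, among 824. With controls 3 and 4 only it was 0 among 97, and with 1 library left out 0 to 1, among 100 to 685. The block also ended the calls of Usp18 in TLR3-KO (2.72, adjusted p = 0.0713) and, averaged over genotypes, of Csf3r (1.14, 0.0629) and Il4ra (0.45, 0.0575), and changed no other call of a member. Causes of these changes were not tested, and fits on part of the controls use fewer libraries.

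Log2 fold changes that turned sign lay between -0.42 and 0.26 with all libraries, and none of them was called there. For pneumonia in WT, Cish was -0.73 with controls 1 and 2 only, and Socs4, Socs6 and Socs7 were 0.064, -0.11 and 0.28 with controls 3 and 4 only. In TLR3-KO, Socs6 and Socs7 were -0.038 and 0.20 with TLR3-KO control 4 alone and -0.11 and 0.26 with controls 3 and 4 only, and Cish was -0.36 with controls 1 and 2 only. Between control genotypes, Socs5 and Socs7 were -0.044 and -0.23 with TLR3-KO control 4 alone, Socs1 and Socs5 were -0.23 and -0.029 with controls 1 and 2 only, and Cish was 0.37 with controls 3 and 4 only. With 1 library left out, pneumonia in WT gave Cish -0.28 to 0.47, Socs5 -4.8e-05 to 0.10 and Socs6 -0.077 to 0.087, pneumonia in TLR3-KO gave Socs6 -0.033 to 0.15 and Socs7 -0.30 to 0.056, and genotype in controls gave Socs1 -0.24 to 0.43, Socs5 -0.019 to 0.080 and Socs7 -0.084 to 0.30.

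Over all genes, calls ranged over the alternatives from 0 to 1661 for pneumonia in WT (0 with all libraries), 0 to 4114 in TLR3-KO (136), 6 to 781 for genotype in controls (82), 16 to 444 after pneumonia (75), 0 to 98 for the difference of responses (0), 68 to 3464 for pneumonia averaged (282) and 34 to 824 for genotype averaged (253). Same-numbered libraries correlated at -0.29 to -0.12 in WT and -0.07 to 0.34 in TLR3-KO between states. Socs1, at 20 to 152 counts per library, limits what can be detected for that gene.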

Other observations

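Some ligands and target genes of the pathway divided the control libraries as Cish and Socs3 did, and others ran the other way. Of 10 ligands tested, 2 were higher in controls 1 and 2 in both genotypes without overlap, Osm and Lif. Another 2, Il15 and Il7, were lower. The genes named here were chosen after their values were seen. Osm, which encodes the IL-6 family cytokine oncostatin M, reached 320, 308, 44.7 and 54.4 CPM across WT controls 1 to 4, and the TLR3-KO controls held 297, 281, 49.7 and 75.3 CPM. Injured libraries lay between these levels, at 77.5 to 156 CPM in WT and 119 to 157 CPM in TLR3-KO. Lif, a cytokine that also signals through gp130, was 2.67-fold higher in controls 1 and 2 than in controls 3 and 4 in WT and 2.98-fold higher in TLR3-KO. Of 13 STAT targets tested, 5 were higher in controls 1 and 2 in both genotypes without overlap and 3 were lower. Bcl3 (2.57-fold and 2.46-fold) and Junb (2.11-fold and 1.85-fold) were among those higher, and Cebpd, which was 2.29-fold and 2.79-fold higher in controls 3 and 4, ran the other way. Of 30 receptors tested, 7 were higher and 8 lower in controls 1 and 2. Il2rb, a receptor chain shared by IL-2 and IL-15, was 5.79-fold and 7.32-fold higher in controls 3 and 4, and Spsb1, a SOCS box protein, 4.07-fold and 4.58-fold. Levels of Il2rb were low, at 0.436, 0.137, 0.492 and 2.82 CPM in WT controls 1 to 4, so its WT ratio rests on control 4. TLR3-KO controls 1 to 4 held 0.427, 0.274, 2.57 and 2.55 CPM. Summed T and NK cell markers lay at 1.9, 0.891, 1.87 and 5.15 CPM in WT controls and 1.85, 1.58, 9.74 and 10.8 CPM in TLR3-KO controls. Their part in the Il2rb difference was not tested.

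All 4 SPSB and WSB genes that were split, Spsb1, Spsb2, Spsb3 and Wsb2, were lower in controls 1 and 2. Of the 11 JAK and STAT genes, 6 were higher in controls 1 and 2, with Jak3 at 1.95-fold and 2.09-fold, and Stat2 alone was lower. Over all genes tested, 15.0% were higher and 30.7% lower in controls 1 and 2 in both genotypes, by CPM on raw totals and without TMM scaling.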
